A study of Mus musculus with 12 samples.

Results

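The insulin and insulin-like growth factor (IGF) axis was followed in liver RNA through 10 genes taken by symbol from the deposited expression table: Insr, Irs1, Irs2, Ghr, Socs2, Igf1, Igfals, Igfbp1, Igfbp2 and Igfbp4. All 10 were among the 24475 genes of the table, and all 10 passed the filter on low values that left 11347 genes for testing. The samples were 12 whole-liver libraries of fed mice, 6 from wild-type (WT) animals, numbered 1 to 6, and 6 from animals labelled Gcg KO, numbered 7 to 12. The study asked how loss of glucagon affects liver zonation, the division of tasks between hepatocytes near the portal and the central vein. Gcg encodes the precursor from which the pancreas makes glucagon and the gut makes glucagon-like peptides, and the labels do not say which part of the gene was removed. They give no strain, sex, age, batch or date, and they do not state that each library came from a separate animal. The p-values thus measure only how far these samples lie apart, and part or all of that spread may be technical.

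Insulin binds the insulin receptor on hepatocytes, and the receptor passes the signal to kinases through the docking proteins IRS1 and IRS2. One outcome is that the transcription factor FOXO1 leaves the nucleus, which lowers transcription of Igfbp1, Irs2 and the genes of glucose production; glucagon and fasting act the other way. Growth hormone acts on the same cells through its receptor, GHR, and the factor STAT5, and drives hepatic production of IGF1 and of the acid-labile subunit. IGF1 then circulates bound to IGF-binding proteins, which set how much of it can reach its receptor.

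The libraries held an estimated 10200000 to 15000000 reads, so that 1 RPKM (reads scaled to gene length and library size) stood for 10.2 to 15.0 reads on each kilobase of transcript. Gcg was listed at 0 RPKM in all 12 libraries, so the targeted gene could not check the labels in liver. Hepatocyte markers summed to 48027 to 62442 RPKM in WT and 46959 to 58106 RPKM in Gcg KO, with none of the 8 at 0 in all libraries; 1 of them, Cps1 of the urea cycle, passed as lower. Of the markers of other cells, Lyve1 (sinusoidal endothelium, 1 of 8 tested) and Spp1 (osteopontin, 1 of 3 tested on the bile duct list) passed as higher. Hbb-bs (red cells, 1 of 4 tested) and Cela1 (a pancreatic enzyme, the only 1 tested of 6) passed as lower. No marker of stellate cells, Kupffer cells, neutrophils or lymphocytes passed. The sums of the endothelial, red cell and pancreatic lists overlapped between groups. The bile duct list, which Spp1 dominated, summed to 14.5 to 27.8 RPKM in WT and 35.2 to 249 RPKM in Gcg KO, highest in Gcg KO 11. The insulin genes Ins1 and Ins2 were at 0 in all 12 libraries, as were Cpa1 and Prss2 of the pancreatic list. On the first principal component of the tested genes (27.9% of the variance), WT 6, Gcg KO 10 and Gcg KO 12 lay at 17.0, 28.3 and 28.8. The other 9 libraries spread from -21.9 (WT 4) to 6.99 (Gcg KO 9), and WT 6 lay nearer to Gcg KO 9 than to Gcg KO 10. WT 6, Gcg KO 10 and Gcg KO 12 also had the lowest Igfbp1, and they are called below the 3 libraries that lay apart. Where leaving out these 3 libraries ends or makes a call, that value is given as well. In whole liver, fewer cells of a type and less RNA per cell cannot be told apart.

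Expression was compared as log2(RPKM + 0.5) in limma, and each adjusted p is from that fit, with Benjamini-Hochberg adjustment over all 11347 genes and a threshold of 0.05. Of the 10 genes, 2 fell in Gcg KO livers, Igfbp4 and Irs1, 0 rose, and 8 did not pass. Over all tested genes 218 fell (1.92%) and 221 rose (1.95%), 3.87% in either direction. Without adjustment, 5 of the 10 had p below 0.05 and a lower level in Gcg KO (Igfbp4, Irs1, Igf1, Ghr and Igfals), against 6.96% of all tested genes, and 0 had a higher level (8.75% of all). The median log2 fold change of the 10 genes, Gcg KO over WT, was -0.25, and that of all tested genes was 0.014. The 10 genes were chosen with earlier results of these data known, so these counts and medians describe the set and do not test it. Without WT 6, Gcg KO 10 and Gcg KO 12, where fewer samples were tested, 0 of the 10 passed in either direction, while 171 genes in all fell and 128 rose.

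**Figure D1:**
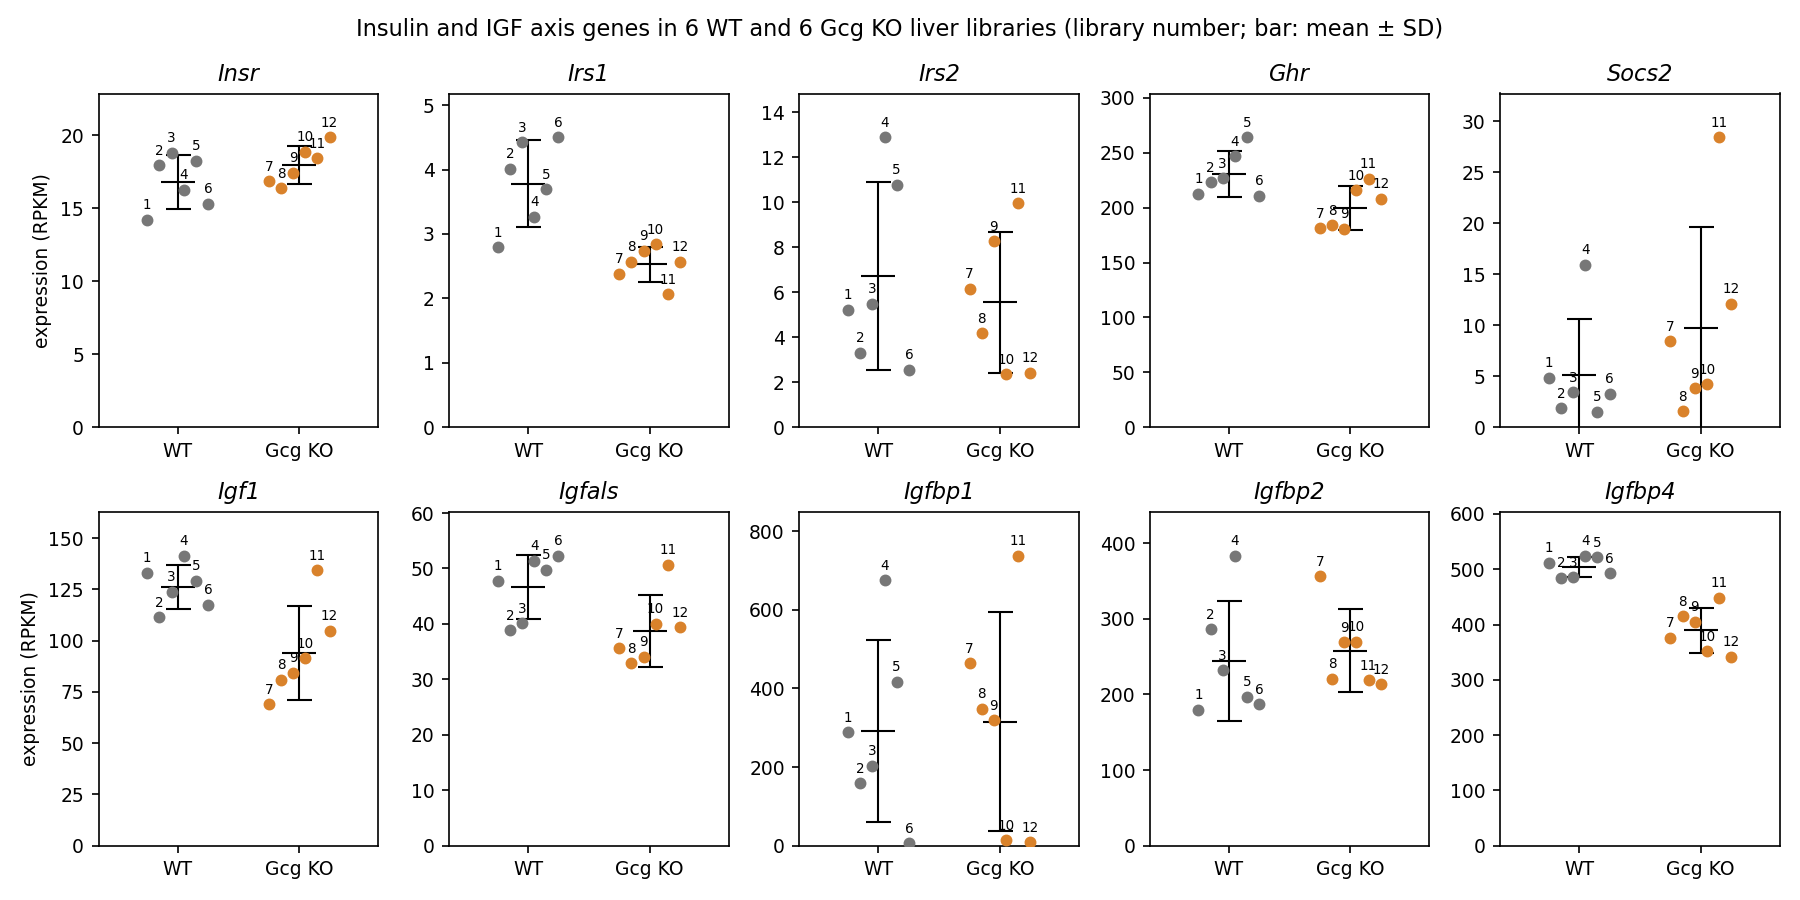
RPKM (vertical) of each of the 10 genes, one numbered point per library, grey for WT and orange for Gcg KO; black bars are the group mean and SD, cut at 0 where they would go below it. All 6 Gcg KO points lie below all WT points for Igfbp4, Gcg KO 11 is the highest Gcg KO point for Igf1, Igfals, Ghr and Igfbp4, and WT 6, Gcg KO 10 and Gcg KO 12 are lowest for Igfbp1 and Irs2.

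The order of mean levels, which RPKM allows because it is per length, was the same for the 7 most abundant genes in both groups. It ran from Igfbp4 (504 RPKM in WT, 390 in Gcg KO) through Igfbp1 (291 and 316), Igfbp2 (244 and 258), Ghr (231 and 199), Igf1 (126 and 94.2) and Igfals (46.7 and 38.8) to Insr (16.8 and 18.0). Irs2, Socs2 and Irs1 were each below 10 RPKM on average in both groups, and their ranges over the libraries overlapped. From Igfbp4 to Ghr, each gene's range over the 12 libraries overlapped that of its neighbour, so ranges do not separate neighbours there. Differences between neighbours within each library were not tested. Igfbp4 (lowest library 342 RPKM) lay above Ghr (highest library 264 RPKM). Ghr (lowest library 181 RPKM) and Igf1 (highest library 142 RPKM) did not overlap, nor did Igf1 (lowest 69.0) and Igfals (highest 52.3).

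Insr (Entrez 16337; chromosome 8, 3150922 to 3279649, GRCm38) encodes the insulin receptor itself. It was at 14.2, 18.0, 18.8, 16.3, 18.3 and 15.3 RPKM in WT 1 to 6 and at 16.9, 16.4, 17.4, 18.9, 18.4 and 19.9 RPKM in Gcg KO 7 to 12. The groups overlapped over most of their range. Its log2 fold change was 0.098 (95% confidence interval -0.070 to 0.27, adjusted p = 0.620), and 0.019 without the 3 libraries that lay apart (adjusted p = 0.949).

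Irs1 (Entrez 16367; chromosome 1, 82233105 to 82291439) encodes one of the docking proteins that couple the receptor to phosphoinositide 3-kinase. Its level was 2.79, 4.01, 4.42, 3.27, 3.70 and 4.51 RPKM in WT 1 to 6 and 2.38, 2.57, 2.74, 2.84, 2.06 and 2.57 RPKM in Gcg KO 7 to 12. WT 1 was the only WT library within the Gcg KO range, and it lay just under Gcg KO 10. Irs1 fell from 3.78 ± 0.669 to 2.53 ± 0.278 RPKM (SD, n = 6 each). The log2 fold change was -0.49 ± 0.11 (SE, adjusted p = 0.0232). With pseudocounts of 0.1 and 1 the log2 fold change was -0.55 and -0.43. The call was lost without WT 2 (adjusted p = 0.0547), WT 3 (0.0597) or Gcg KO 7 (0.0516), and without the 3 libraries that lay apart (-0.49, adjusted p = 0.0765). Over all 22 alternatives the adjusted p of Irs1 ranged from 0.0063 to 0.0765, and the sign of its change was the same.

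Irs2 (Entrez 384783; chromosome 8, 10984681 to 11008929) encodes the other main docking protein of the hepatocyte, and fasting is known to raise it. It was at 5.21, 3.30, 5.49, 12.9, 10.8 and 2.55 RPKM in WT 1 to 6 and at 6.16, 4.18, 8.26, 2.35, 9.96 and 2.43 RPKM in Gcg KO 7 to 12. Libraries of both genotypes were found at both ends: WT 4, WT 5 and Gcg KO 11 were highest, and Gcg KO 10, Gcg KO 12 and WT 6 lowest. Between genotypes the log2 fold change was -0.22 with a 95% confidence interval of -1.11 to 0.67 (adjusted p = 0.871), and 0.017 without the 3 libraries. The 2 docking proteins thus had different patterns, as Irs1 was lowest in Gcg KO 11, Gcg KO 7 and Gcg KO 8. In WT 6, where Irs2 had its lowest value of the WT group, Irs1 was highest (4.51 RPKM), just above WT 3 (4.42 RPKM). In Gcg KO 10 and Gcg KO 12 Irs1 was at 2.84 and 2.57 RPKM, among Gcg KO values of 2.06 to 2.84 RPKM. A RefSeq gene, 9530052E02Rik, overlaps Irs2, as do Igf1os, Gm41549, Gm41254 and Gm33230 with Igf1, Igfals, Ghr and Socs2. Whether strand was used in counting is not stated, so the levels of these 5 genes may hold reads of their partners.

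Ghr (Entrez 14600; chromosome 15, 3317755 to 3583352) encodes the growth hormone receptor. It was at 213, 223, 227, 247, 264 and 211 RPKM in WT 1 to 6 and at 181, 184, 181, 216, 227 and 208 RPKM in Gcg KO 7 to 12. Gcg KO 7, 8 and 9 were the lowest of all, and Gcg KO 10 and 11 lay within the WT range. The log2 fold change was -0.21 (95% confidence interval -0.38 to -0.040, adjusted p = 0.193).

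Igf1 (Entrez 16000; chromosome 10, 87858265 to 87937047) encodes the hormone itself, most of which in the circulation comes from the liver. It was at 133, 111, 124, 142, 129 and 118 RPKM in WT 1 to 6 and at 69.0, 81.0, 84.4, 91.6, 134 and 105 RPKM in Gcg KO 7 to 12. Of the 6 Gcg KO libraries, 5 lay below every WT library, and Gcg KO 11 lay above all WT libraries but WT 4. Mean Igf1 was 126 ± 10.9 RPKM in the WT group and 94.2 ± 23.0 in the Gcg KO group, a log2 fold change of -0.45 ± 0.13 (SE) that missed the threshold (adjusted p = 0.0829). Without Gcg KO 11 it passed (-0.56, adjusted p = 0.0074), as it did with libraries weighted by their quality (-0.48, adjusted p = 0.0281). Without the 3 libraries that lay apart it was -0.51 (adjusted p = 0.147). Over all 22 alternatives the adjusted p of Igf1 ranged from 0.0074 to 0.176, and the sign of its change was the same.

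Igfals (Entrez 16005; chromosome 17, 24877844 to 24882011) encodes the acid-labile subunit, which holds IGF1 in its large circulating complex. It was at 47.8, 38.8, 40.1, 51.4, 49.7 and 52.3 RPKM in WT 1 to 6 and at 35.6, 32.9, 34.1, 40.1, 50.7 and 39.4 RPKM in Gcg KO 7 to 12. Gcg KO 7, 8 and 9 were again the 3 lowest of the 12 libraries, as for Igf1 and Ghr, and Gcg KO 11 was again the highest of its group. Its log2 fold change was -0.27 (95% confidence interval -0.51 to -0.033, adjusted p = 0.239). Without Gcg KO 11 it was -0.35 (adjusted p = 0.0583).

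Socs2 (Entrez 216233; chromosome 10, 95383903 to 95417321) encodes a suppressor of cytokine signalling that growth hormone induces and that restrains its receptor. It was at 4.84, 1.88, 3.45, 15.9, 1.51 and 3.28 RPKM in WT 1 to 6 and at 8.42, 1.59, 3.79, 4.23, 28.5 and 12.1 RPKM in Gcg KO 7 to 12. Gcg KO 11 and WT 4 were highest, and the 2 lowest, WT 5 and Gcg KO 8, were also of different genotypes. The highest library had 18.9 times the level of the lowest. The log2 fold change of 0.74 had a 95% confidence interval of -0.57 to 2.05 (adjusted p = 0.634). It was 0.34 without Gcg KO 11 and 1.13 without WT 4. Cish, a second feedback inhibitor induced by growth hormone and named here after its values were seen, ranged from 0.277 to 22.1 RPKM. Its highest values were in Gcg KO 12, WT 6 (13.2 RPKM) and Gcg KO 10 (10.2 RPKM), the libraries that lay apart. Gcg KO 11 followed at 6.51 RPKM.

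The IGF-binding proteins Igfbp4, Igfbp1 and Igfbp2 made up most of the binding protein RNA. Igfbp4 (Entrez 16010; chromosome 11, 99040005 to 99052655) encodes a binding protein that is mostly inhibitory and is released from IGF by the protease PAPP-A. It was at 512, 485, 486, 525, 522 and 493 RPKM in WT 1 to 6 and at 376, 415, 405, 352, 448 and 342 RPKM in Gcg KO 7 to 12. All 6 Gcg KO values lay below all 6 WT values, which held for 1.50% of tested genes in this direction and for no other gene of the 10. No gene of the 10 had all Gcg KO values above all WT values (1.60% of tested genes; 3.09% were separated one way or the other). Igfbp4 fell from 504 ± 18.1 to 390 ± 40.6 RPKM, a log2 fold change of -0.38 ± 0.071 (SE, adjusted p = 0.0083), or 1.30-fold. The spread was wider in Gcg KO (SD of log2 values 0.1497) than in WT (0.0518), and this difference in spread was not tested. Without the 3 libraries that lay apart, the log2 fold change was -0.30 and the call was lost (adjusted p = 0.0566). Over all 22 alternatives the adjusted p of Igfbp4 ranged from 0.0031 to 0.0566, and the sign of its change was the same. Gcg KO 12 and Gcg KO 10 of those 3 had the lowest Igfbp4 levels.

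Igfbp2 (Entrez 16008; chromosome 1, 72824480 to 72852474) encodes a binding protein that hepatocytes secrete and fasting is known to raise. It was at 179.6, 286, 232, 383, 197 and 187 RPKM in WT 1 to 6 and at 356, 221, 269, 269.5, 218 and 213 RPKM in Gcg KO 7 to 12. WT 4 and Gcg KO 7 were highest, and the groups overlapped throughout. The log2 fold change was 0.11 (95% confidence interval -0.29 to 0.51, adjusted p = 0.855).

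**Figure D2:**
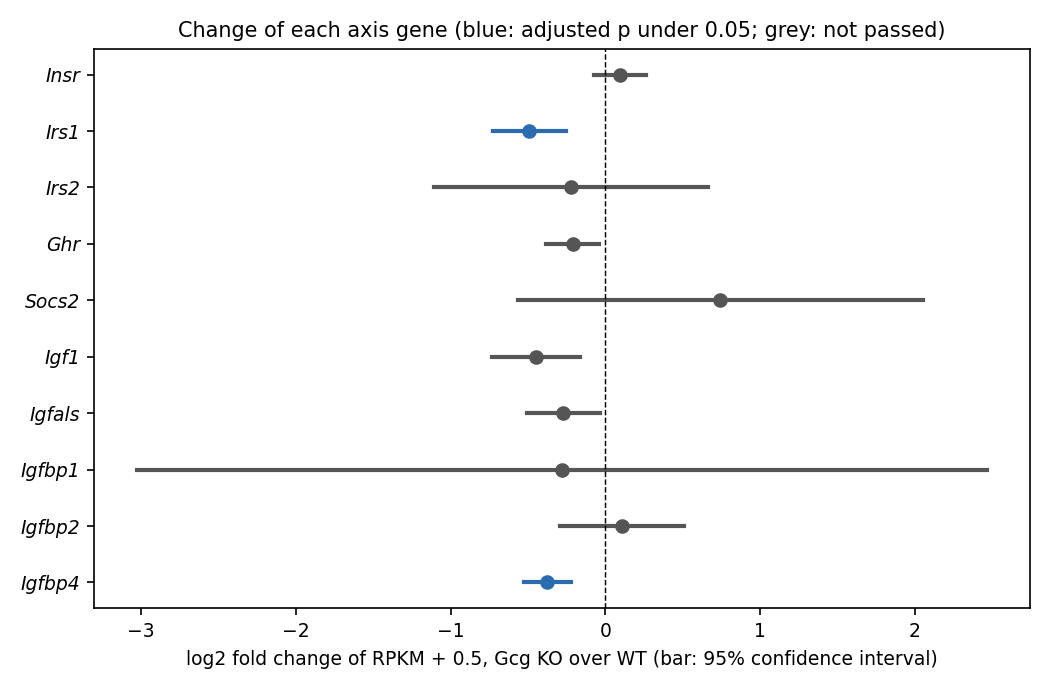
Log2 fold change of RPKM + 0.5, Gcg KO over WT, for each of the 10 genes (point), with its 95% confidence interval (bar). Irs1 and Igfbp4 (blue) passed the adjusted threshold, both downwards; the interval of Igfbp1 runs from -3.03 to 2.47, the widest of the 10.

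Igfbp1 (Entrez 16006; chromosome 11, 7197787 to 7202546) encodes a small secreted binding protein of hepatocytes whose transcription insulin shuts off within the course of a meal. Among the 10 genes it spread most. Its level was 289, 159, 203, 675, 417 and 6.22 RPKM in WT 1 to 6 and 464, 349, 319, 14.2, 738 and 9.35 RPKM in Gcg KO 7 to 12. Both genotypes held both extremes, with WT 4 and Gcg KO 11 at the top and WT 6, Gcg KO 12 and Gcg KO 10 at the bottom, and no library lay between 14.2 and 159 RPKM. The highest library had 119 times the level of the lowest. The log2 fold change was -0.28 ± 1.28 (SE, adjusted p = 0.959), and without the 3 lowest libraries it was 0.54 (adjusted p = 0.591). More of these 3 are Gcg KO than WT, so leaving out the lowest values moves the fold change upwards by the choice itself. The 3 libraries also had the lowest neutrophil marker sums, 5.71 RPKM in WT 6, 3.78 in Gcg KO 10 and 4.96 in Gcg KO 12, while the other 9 had 23.6 RPKM or more; the part of other cells in the Igfbp1 level was not tested.

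Promoter sequence is shown for Igfbp1, Irs2 and Irs1 because these 3, of the 8 genes with a window in the RefSeq table, hold the core of the insulin response element, CAAAACAA, known from the Igfbp1 promoter as a site that FOXO1 binds. Each window runs from 250 bases before to 50 bases after an annotated start (GRCm38.p6), on the strand of the gene, and the capitals mark the 8 letters, on either strand. The Igfbp1 window is chr11:7197537-7197836 (plus strand), with the letters beginning 108 bases before the start. The Irs2 window is chr8:11008880-11009179 (minus strand), with the letters on the other strand beginning 38 bases before the start. The Irs1 window is chr1:82291390-82291689 (minus strand), also on the other strand, beginning 33 bases before the start.
Igfbp1: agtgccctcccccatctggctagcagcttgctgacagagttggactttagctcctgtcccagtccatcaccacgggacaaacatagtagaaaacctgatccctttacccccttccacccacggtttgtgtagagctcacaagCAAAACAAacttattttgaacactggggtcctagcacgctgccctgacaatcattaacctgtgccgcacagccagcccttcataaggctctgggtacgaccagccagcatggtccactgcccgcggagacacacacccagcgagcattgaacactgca
Irs2: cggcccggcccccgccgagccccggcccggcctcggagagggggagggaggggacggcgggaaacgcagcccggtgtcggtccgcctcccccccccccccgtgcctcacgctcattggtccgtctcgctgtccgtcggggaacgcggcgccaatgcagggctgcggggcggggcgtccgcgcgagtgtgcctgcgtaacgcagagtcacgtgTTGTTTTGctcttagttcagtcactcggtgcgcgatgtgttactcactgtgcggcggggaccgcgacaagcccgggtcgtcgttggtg
Irs1: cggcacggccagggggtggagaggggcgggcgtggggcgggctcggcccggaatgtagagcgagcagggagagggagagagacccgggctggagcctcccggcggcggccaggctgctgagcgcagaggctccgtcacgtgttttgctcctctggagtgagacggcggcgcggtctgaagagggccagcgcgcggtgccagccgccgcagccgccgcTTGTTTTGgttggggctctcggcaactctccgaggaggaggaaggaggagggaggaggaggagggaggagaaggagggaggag
Of 32851 promoter windows in the table, 2.51% hold these letters. Levels of the 3 genes differed in pattern: Igfbp1 and Irs2 shared their 3 lowest libraries, and Irs1 was lowest in Gcg KO 11, Gcg KO 7 and Gcg KO 8. Irs1 had its highest value in WT 6 (4.51 RPKM), by a small margin over WT 3 (4.42 RPKM). The match describes the sequence and is not evidence of binding in these livers.

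A STAT motif, TTCNNNGAA, was found in 2 of the 3 Igfals windows and in no other window of the 8 genes, against 8.30% of all windows. The second of these 3 windows, chr17:24877981-24878280 (plus strand), is shown because STAT5 is known to drive this gene, with the motif in capitals beginning 58 bases before the start.
Igfals: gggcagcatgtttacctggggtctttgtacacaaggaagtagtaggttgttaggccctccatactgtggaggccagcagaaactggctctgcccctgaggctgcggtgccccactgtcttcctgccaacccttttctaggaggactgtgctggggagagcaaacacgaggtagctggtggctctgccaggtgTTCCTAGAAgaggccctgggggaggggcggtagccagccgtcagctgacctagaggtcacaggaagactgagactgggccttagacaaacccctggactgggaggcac
The same window holds the FOXO core GTAAACA on the other strand, beginning 242 bases before the start, as do 3.65% of all windows. The full cyclic AMP response element TGACGTCA, through which glucagon signalling acts on many liver genes, was in none of the 12 windows of the 8 genes and in 1.79% of all windows.

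The genes also differed in how far libraries of one genotype lay apart. The SD of log2(RPKM + 0.5) around the group means was 2.55 for Igfbp1, the fifth largest among the 11347 tested genes, and above that of all 500 tested genes nearest to it in mean level, whose median was 0.154. Socs2 (SD 1.21) lay above 99.4% and Irs2 (SD 0.819) above 98.8% of their 500 nearest genes. Igfbp2 (0.361) lay above 90.2%, Igf1 (0.250) above 82.8% and Igfals (0.205) above 75%. Irs1 (0.192, above 48.2%), Insr (0.132, 44.8%), Ghr (0.136, 39.8%) and Igfbp4 (0.112, 25.2%) were in the middle or lower part. The 2 genes that passed the test were among the 4 with the least spread for their level. The test divides a change by the spread within groups, so low spread favours a call by design.

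**Figure D3:**
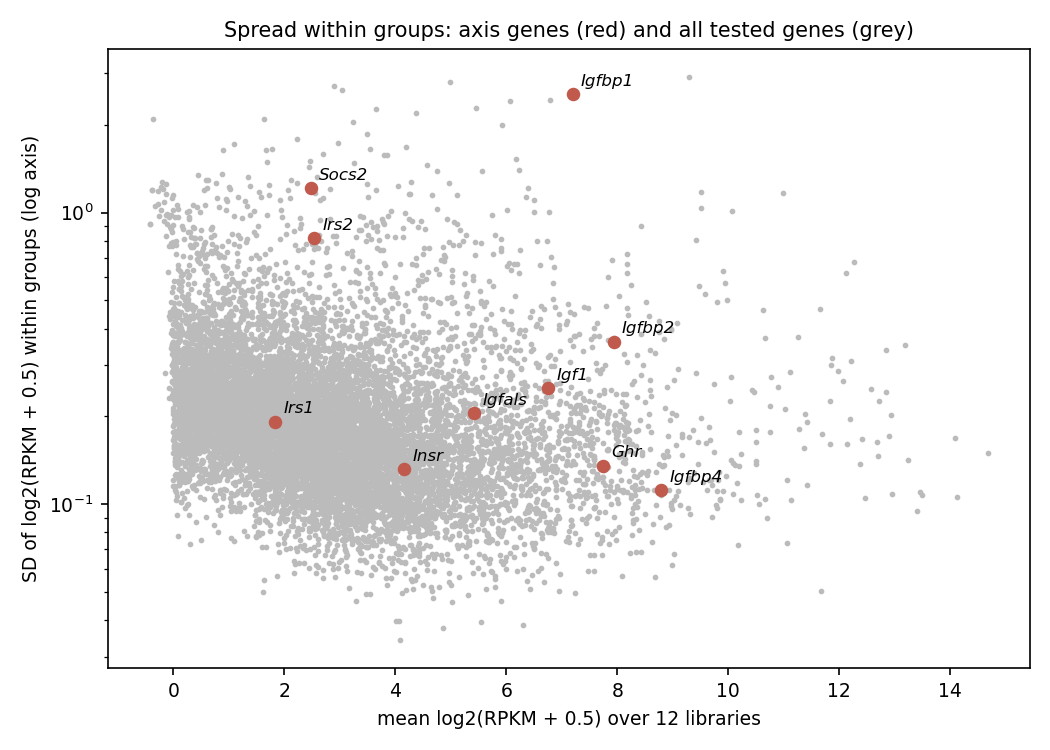
SD of log2(RPKM + 0.5) within groups (vertical, log axis) against mean log2(RPKM + 0.5) over 12 libraries, for the 10 axis genes (red) and all 11347 tested genes (grey). Igfbp1 (2.55), Socs2 (1.21) and Irs2 (0.819) lie at the upper edge for their level, and Igfbp4 (0.112) in the lower part.

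The binding protein RNAs together, Igfbp1 to Igfbp7, summed to 1086 ± 305 RPKM in the WT group and 1012 ± 318 in the Gcg KO group. Igfbp1 made up 0.848% of this sum in WT 6 and 41.3% in WT 4, and 1.51% in Gcg KO 12 and 50.6% in Gcg KO 11. Igfbp4 was the largest part in 9 of the 12 libraries, and Igfbp1 in WT 4, Gcg KO 7 and Gcg KO 11. The share of Igfbp4 ran from 32.1% to 67.3% in WT and from 30.5% to 55.2% in Gcg KO. Without Igfbp1, the sum was 795 ± 86.0 RPKM in the WT group and 696 ± 54.2 in the other. Igfbp7, which is made largely by vessel-wall cells, was at 38.4 ± 4.46 and 40.3 ± 6.87 RPKM (adjusted p = 0.871).

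**Figure D4:**
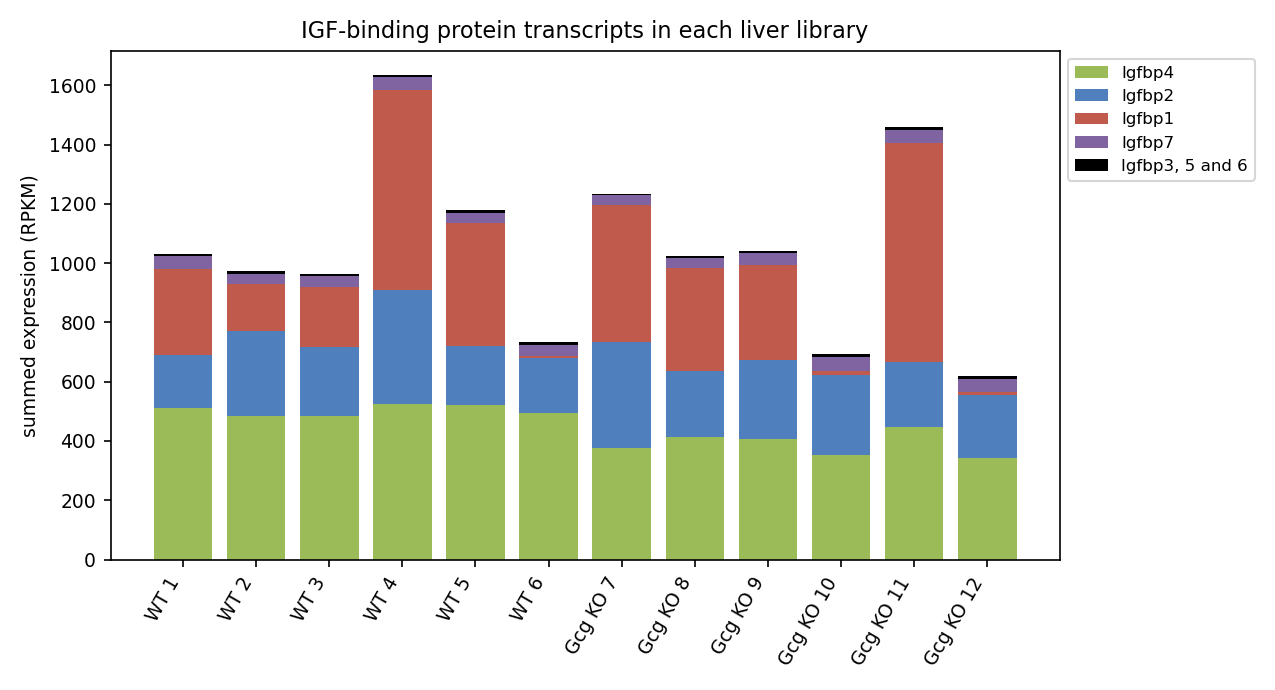
RPKM of the IGF-binding protein genes stacked for each library, Igfbp4 at the bottom, then Igfbp2, Igfbp1, Igfbp7 and the sum of Igfbp3, Igfbp5 and Igfbp6. The Igfbp1 part is nearly absent in WT 6, Gcg KO 10 and Gcg KO 12 (6.22, 14.2 and 9.35 RPKM) and largest in WT 4 and Gcg KO 11, and the Igfbp4 part is lower in each Gcg KO library than in each WT library.

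Igfbp1 and Igfbp2 each lie beside another binding protein gene, Igfbp3 on chromosome 11 and Igfbp5 on chromosome 1. Igfbp3, the main carrier of IGF1 in blood, was at 4.93, 5.997, 5.55, 5.57, 5.85 and 5.86 RPKM in WT 1 to 6 and at 2.38, 5.46, 3.86, 9.37, 5.76 and 6.37 RPKM in Gcg KO 7 to 12. It was highest in Gcg KO 10 and Gcg KO 12, which were among the 3 lowest for its neighbour Igfbp1. Its log2 fold change was -0.12 (95% confidence interval -0.60 to 0.36, adjusted p = 0.871). Igfbp5 stood at 2.24 ± 0.648 RPKM in WT livers and 1.99 ± 0.851 in Gcg KO livers (adjusted p = 0.785).

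The genes whose levels moved most like those of the 3 widely spread members were named by the root-mean-square difference of their log2 deviations over the 12 libraries. All these values share the same libraries, and the genes were picked for their likeness to the member. Shared lowest or highest libraries, and a wide spread within groups, thus follow in large part from that choice. Such a spread also works against a call between genotypes. The values are a description. For Igfbp1, whose own root-mean-square deviation was 2.33, the nearest gene was Egr1, an early transcription factor (difference 0.701). Egr1 was at 0.665 RPKM in WT 6 and 91.3 RPKM in WT 4. It is on the list below of genes that insulin induces, whereas insulin represses Igfbp1. The next were S100a9 (0.961) and S100a8 (0.982), both neutrophil markers, Trp53inp1 (1.03), a target of p53, and Ddit4 (1.06), an inhibitor of mTOR signalling. In all 5 of them WT 6, Gcg KO 10 and Gcg KO 12 were the 3 lowest libraries, and 0 of the 5 passed the test between genotypes (lowest adjusted p = 0.774).

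For Irs2 the nearest gene was G6pc, glucose-6-phosphatase, the last enzyme of glucose production and itself a FOXO1 target. It was at 393, 336, 411, 681, 660 and 132 RPKM in WT 1 to 6 and at 415, 394, 459, 143, 628 and 134 RPKM in Gcg KO 7 to 12, and differed from Irs2 by 0.311 where Irs2 itself deviated by 0.756. Rgs1, a regulator of G protein signalling (0.400), Gja4, a connexin of vessel walls (0.412), D17H6S56E-5 (0.421) and Tnfrsf1b, a receptor for tumour necrosis factor (0.425), followed. Of the 5, 4 had WT 6, Gcg KO 10 and Gcg KO 12 as their 3 lowest libraries, Gja4 being the exception. For Socs2 (own deviation 1.17) the nearest were E2f8, a cell cycle factor (0.640), Snord100 (0.713), the mitochondrial carrier Slc25a30 (0.739), the galactosyltransferase B3galt1 (0.790) and the chemokine Cxcl13 (0.843). E2f8 and Slc25a30 were highest in Gcg KO 11, at 6.35 and 39.8 RPKM, as Socs2 was. Snord100 was listed at 0 in 8 of the 12 libraries and never exceeded 2.41 RPKM.

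**Figure D5:**
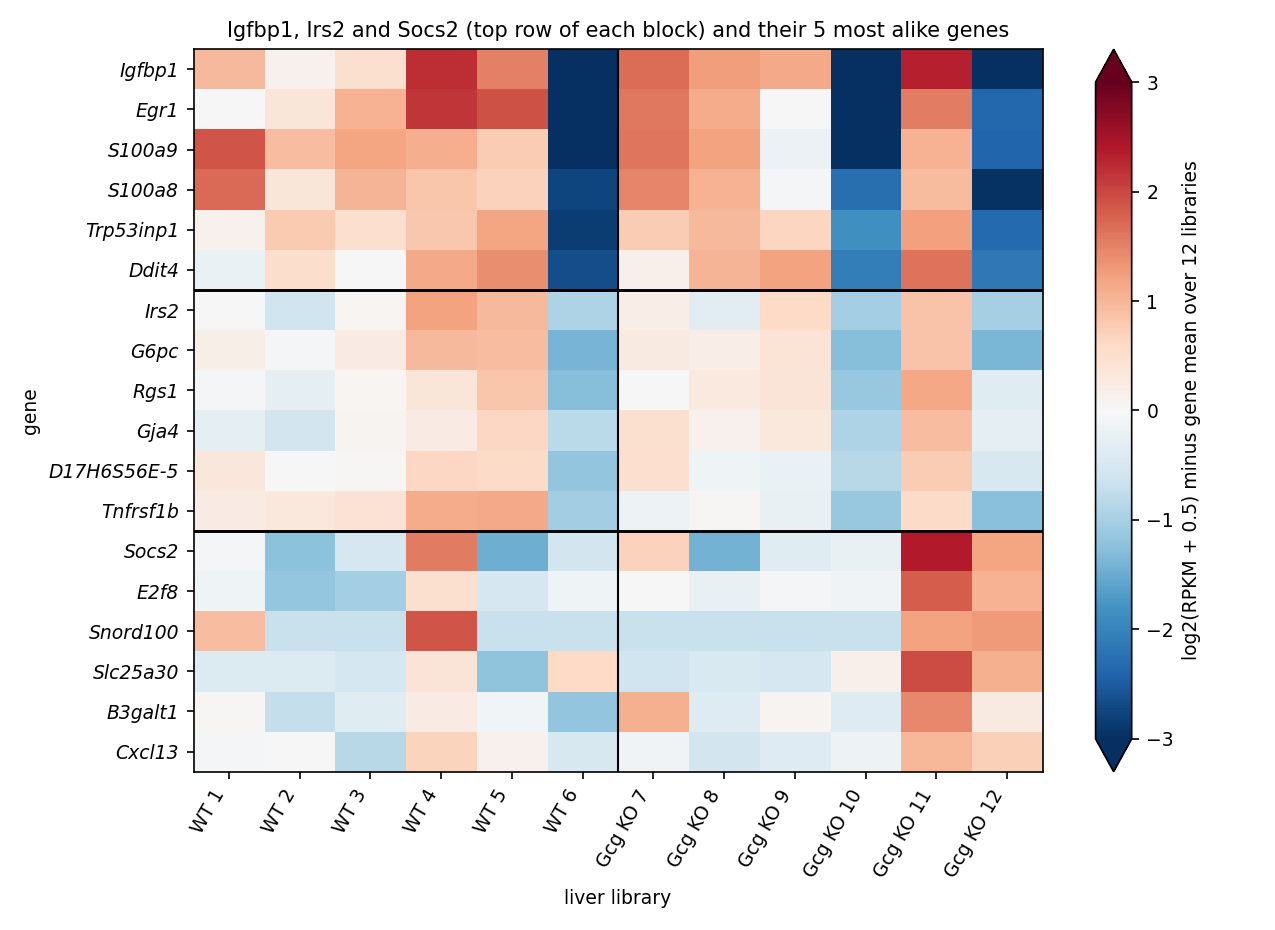
Log2(RPKM + 0.5) minus the gene's mean over 12 libraries (colour, red above and blue below the mean) for Igfbp1, Irs2 and Socs2, each at the top of a block with its 5 most alike genes, WT libraries left of the line and Gcg KO right. The upper blocks are blue in WT 6, Gcg KO 10 and Gcg KO 12, and the Socs2 block is reddest in Gcg KO 11 or, for Snord100, in WT 4.

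Other genes of the pathway came from 6 lists, which leave out the 10 members and were chosen with earlier results of these data known. Of 51 genes of insulin receptor and proximal signalling, 44 were tested, 0 passed in either direction by limma, and 3 of the 44 had an unadjusted p below 0.05 (15.7% of all tested genes), with a median log2 fold change of 0.044. Ceacam1, which promotes insulin clearance, stood at 61.9 ± 4.58 RPKM in WT livers and 54.8 ± 2.56 in Gcg KO livers (adjusted p = 0.152), with no overlap between groups. Akt2, the main insulin-activated kinase of liver, had 29.9 ± 1.84 and 30.2 ± 0.982 RPKM (adjusted p = 0.944). Foxo1, named after its values were seen, stood at 10.1 ± 2.56 RPKM in WT livers and 7.06 ± 1.14 in Gcg KO livers (log2 fold change -0.46, adjusted p = 0.168).

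Of 18 further genes of the IGF system, 10 were tested and 0 passed in either direction by limma, with or without adjustment (median 0.035). Plg, the plasmin precursor, had 887 ± 54.7 and 889 ± 63.5 RPKM (adjusted p = 0.995), and Klkb1, plasma prekallikrein, 92.4 ± 5.81 and 98.6 ± 5.95 RPKM (adjusted p = 0.505). The receptor for IGF1, Igf1r, was below the filter, at 0.304 ± 0.0568 RPKM in WT livers and 0.326 ± 0.0451 in Gcg KO livers, as was the ligand Igf2, at 0.119 ± 0.0516 and 0.0733 ± 0.0525 RPKM. Of 24 genes of growth hormone receptor signalling, 22 were tested, 0 passed by limma and 4 of the 22 had an unadjusted p below 0.05, against 15.7% of all tested genes (median log2 fold change 0.092). Hnf4a, a hepatocyte transcription factor, had 155 ± 8.94 and 158 ± 25.5 RPKM (adjusted p = 0.965), and Stat3 26.9 ± 4.59 and 25.1 ± 5.54 RPKM (adjusted p = 0.803). Prlr, the prolactin receptor and a relative of Ghr, stood at 27.1 ± 4.79 RPKM in WT livers and 17.4 ± 5.88 in Gcg KO livers (log2 fold change -0.67, adjusted p = 0.0730). It was named after its values were seen, and Gcg KO 7, 8 and 9 were its 3 lowest libraries as well.

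Of 21 genes in the table that insulin induces, 19 were tested. Of these, 4 rose and 0 fell (1.95% and 1.92% of all tested genes), and 15 did not pass. Their median log2 fold change was 0.28, against 0.014 for all tested genes. Without adjustment, 8 of the 19 had p below 0.05 and a higher level in Gcg KO and 1 a lower one (8.75% and 6.96% of all tested genes). Slc2a2, the glucose transporter GLUT2, rose from 76.6 ± 10.3 to 111 ± 9.23 RPKM (log2 fold change 0.54 ± 0.093 SE, adjusted p = 0.0046), with no overlap between groups. Me1, malic enzyme, rose from 36.0 ± 18.0 to 83.0 ± 20.7 RPKM, Pklr, liver pyruvate kinase, from 47.0 ± 11.4 to 79.9 ± 20.7, and Acaca, acetyl-CoA carboxylase, from 11.6 ± 1.07 to 16.2 ± 3.15. The adjusted p of these was 0.0269, 0.0323 and 0.0424. Scd1, a fatty acid desaturase, had 897 ± 339 and 1204 ± 594 RPKM (adjusted p = 0.673), and Thrsp 146 ± 56.4 and 212 ± 66.2 RPKM (adjusted p = 0.276). Acaca lost its call without any single library other than WT 6 or Gcg KO 11 (adjusted p = 0.0536 to 0.0932). Me1 did so without WT 1, 3, 4 or 5 or Gcg KO 7, 8, 9, 10 or 12 (0.0510 to 0.0664), and Pklr without WT 2, 3, 4 or 5 or Gcg KO 7, 9, 10 or 12 (0.0585 to 0.0761). With no filter, Acaca (0.0739), Me1 (0.0594) and Pklr (0.0667) did not pass, nor did Acaca without a variance trend (0.0510). Without WT 6, Gcg KO 10 and Gcg KO 12, Acaca (adjusted p = 0.128), Me1 (0.0837) and Slc2a2 (0.0502) did not pass.

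Of 19 genes that insulin represses, many through FOXO1, all 19 were tested. Of these, 3 rose and 0 fell (1.95% and 1.92% of all tested genes), and 16 did not pass (median 0.011). Without adjustment, 6 had p below 0.05 and a higher level in Gcg KO and 4 a lower one (8.75% and 6.96% of all tested genes). Mttp, which loads triglyceride onto lipoproteins, rose from 85.8 ± 5.19 to 111 ± 5.18 RPKM (adjusted p = 0.0017). Sesn1, a sestrin, rose from 3.55 ± 0.466 to 4.92 ± 0.508 RPKM (adjusted p = 0.0227), and the groups did not overlap for either gene. Txnip, an inhibitor of glucose uptake that glucose induces, rose from 19.4 ± 11.8 to 62.5 ± 34.4 RPKM (adjusted p = 0.0301). Apoc3 had 1677 ± 233 and 1813 ± 189 RPKM (adjusted p = 0.657). Pck1, the gluconeogenic enzyme PEPCK, had 1113 ± 321 and 708 ± 460 RPKM (adjusted p = 0.407), with its lowest values in Gcg KO 12, Gcg KO 10 and WT 6, the libraries lowest for Igfbp1 and Irs2. Its log2 fold change was -1.09, and -0.32 without these 3 (adjusted p = 0.215). The 4 with lower levels, named after their values were seen, were Nr4a1, an early response factor (log2 fold change -1.92, adjusted p = 0.250), Tat, tyrosine aminotransferase (-1.17, 0.155), Ppargc1a, a coactivator of glucose production (-1.01, 0.0638), and the transcription factor Klf15 (-0.49, 0.164). Those with higher levels that did not pass were Ccng2 (0.40, adjusted p = 0.0929), Sesn3 (0.32, 0.145) and Pdk4 (0.61, 0.302), named in the same way. Without the 3 libraries 2 of this list passed as lower, Tat (-0.74, adjusted p = 0.0015) and Klf15 (-0.39, adjusted p = 0.0410). Sesn1 lost its call without Gcg KO 10 (adjusted p = 0.0518), and Txnip without any one of WT 1, 2 or 3 or Gcg KO 7, 8 or 9 (0.0530 to 0.0758), with no filter (0.0668) and with robust empirical Bayes (0.0586). Without the 3 libraries that lay apart Sesn1 did not pass (adjusted p = 0.101).

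Of 20 genes of male liver that depend on growth hormone and STAT5, all 20 were tested. Of these, 2 rose and 2 fell (1.95% and 1.92% of all tested genes), and 16 did not pass (median 0.044). Without adjustment, 5 of the 20 had p below 0.05 and a higher level in Gcg KO and 3 a lower one (8.75% and 6.96% of all tested genes). Slco1a1, an organic anion transporter, rose from 118 ± 18.7 to 187 ± 14.8 RPKM (adjusted p = 0.0015). Mup20, a major urinary protein, rose from 5928 ± 1104 to 15551 ± 4652 RPKM (adjusted p = 8.1e-04); reads of this family may be shared between near-identical copies, so its value is uncertain. Elovl3, a fatty acid elongase, fell from 380 ± 58.3 to 228 ± 65.1 RPKM (adjusted p = 0.0153), and Lifr, a cytokine receptor, fell from 134 ± 28.3 to 77.5 ± 30.7 RPKM (adjusted p = 0.0388). Lifr was at 139 RPKM in Gcg KO 11 and at 56.8 to 74.3 RPKM in the other Gcg KO libraries, so that Gcg KO 11 stood with the WT libraries here as it did for Igf1. Mup3 had 7398 ± 320 and 8572 ± 827 RPKM (adjusted p = 0.209), and Serpina3k 7796 ± 1453 and 7100 ± 1041 RPKM (adjusted p = 0.739). Lifr lost its call without any single library other than WT 2 or Gcg KO 11 (adjusted p = 0.0627 to 0.0882), with no filter (0.0800) and with quantile normalization (0.0520). Without the 3 libraries that lay apart, Lifr (adjusted p = 0.180) and Elovl3 (0.0913) did not pass.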

How the data were processed

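The authors deposited 1 table of RPKM values, with Entrez identifiers, symbols and a column for each of 12 libraries; the unit comes from the table's name and from its values, which are not whole and sum to 592947 to 624701 per library. Per the labels' protocols, polyadenylated RNA went into strand-specific libraries. CASAVA 1.8.2, FastQC and GRCm38 are named in the submitters' processing notes, which name no aligner, counting tool or annotation. No column was unmatched.

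Depth was estimated from the lowest common step of RPKM multiplied by transcript length in genes with a single GENCODE transcript (82 to 125 genes per library lay within 1% of it); whole reads could not be recovered for most genes, so no count test was run. Genes whose RPKM averaged 0.5 or more were tested as log2(RPKM + 0.5) with limma 3.58.1 in R 4.3.3, two-sided, letting the variance follow the mean and adding no covariates, with Benjamini-Hochberg adjustment and a threshold of 0.05; fold changes on this scale understate those of low genes. Errors are SD over 6 libraries, or SE of the model. Coordinates, counted from 1, and promoter windows are RefSeq's (GRCm38.p6).

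The members and lists were chosen with earlier results of these data known. Named genes are the members, each list's genes past the threshold and its 2 most abundant others, and the 5 genes most alike to each of the 3 most variable members; other genes were named after their values were seen. The procedure was tested on simulated data. Alternatives changed the pseudocount, filter, scaling, variance model, library weights and libraries.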

Additional observations from a re-analysis of the deposited data

Results flagged for a closer look

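Igfbp1 in WT 6, at 6.22 RPKM, stood far below the other 5 WT libraries (159 to 675 RPKM). On the log2 scale its gap to the nearest WT library was 0.687 of the range of the group, past the 95% critical value of Dixon's test for this group size. It was the only such value among the 20 combinations of 10 genes and 2 groups, and chance gives about 1 in 20. The Gcg KO libraries 10 and 12 had similarly low Igfbp1, at 14.2 and 9.35 RPKM, and as a pair within 1 group they do not meet that criterion. Neutrophil marker genes were lowest in the same 3 libraries, and their part in the Igfbp1 level was not tested.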

How the results depend on the processing

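No paired analysis was possible because the library numbers run from 1 to 6 in WT and from 7 to 12 in Gcg KO and share no number. Of 220 recomputed log2 fold changes of the 10 genes (22 alternatives each), 206 kept their direction and side of the threshold, 5 lost a call, 2 gained one (Igf1) and 7 changed sign, all in genes that did not pass. Igfbp1 became 0.117 with array quality weights and 0.536 without WT 6, Gcg KO 10 and Gcg KO 12, and ranged from -1.20 to 0.472 when single libraries were left out. Irs2 became 0.0074 and 0.017 under the first 2 of these. The 3 libraries were the lowest for both genes and are mostly Gcg KO, so leaving them out moves both values upwards by the choice itself. With each library centred on its median, Akt2 was at -0.0079, Plg at -0.021 and Hnf4a at -0.0050, and Plg was at -0.0038 without the 3 libraries. Leaving out single libraries, Plg ranged from -0.029 to 0.030 and Hnf4a from -0.045 to 0.079. The number of the 10 genes that fell, 2, was 0 without the 3 libraries and 1 (without WT 2, WT 3 or Gcg KO 7) to 3 (without Gcg KO 11) with single libraries left out; 0 rose under any of the 22 alternatives. Over all genes, 221 higher became 128 without the 3 libraries (100 of them shared) and 136 (without WT 3; 142 without Gcg KO 9) to 261 (without Gcg KO 11) with single libraries left out, and 218 lower became 141 (without WT 3) to 210. Over the 6 pathway lists, 9 higher became 5 with no filter and 5 without the 3 libraries, and 5 (without WT 3 or Gcg KO 7, 9 or 10) to 10 with single libraries left out. The 2 lower were lost without the 3 libraries, where 2 others (Tat and Klf15) passed as lower, and became 1 with no filter, 1 with quantile normalization, and 1 (without WT 1, 3, 4 or 5 or Gcg KO 8, 9, 10 or 12) to 4 (without WT 6 or Gcg KO 11) with single libraries left out. Fewer samples or more tested genes enter some of these fits; otherwise the cause was not tested. Depth limits genes near 0.5 RPKM, where few reads stand behind a value.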
